A study of Rattus norvegicus with 9 samples.

Results

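The genes described here are antioxidant genes counted among the targets of the transcription factor Nrf2, chosen by name and read in the rat spinal cord: Hmox1, Nqo1, Gclc, Gclm, Txnrd1, Srxn1, Slc7a11, Gsr, Gpx4 and Prdx6. Of these 10 genes, 9 were found under that name among the 34890 loci of the expression table, and the expression of Srxn1, a sulfiredoxin, was not analysed here. RNA-seq of total RNA had been done on the ipsilateral L3 to L6 segments of the spinal cord of wild-type male Sprague Dawley rats, with 3 biological replicates in each of 3 groups. JA rats were sham-operated and received normal saline. SNI rats had a spared nerve injury, in which the tibial and common peroneal nerves are tied and cut and the sural nerve is left intact, and received normal saline. PLM rats had the same injury and received paeoniflorin at 20.65 mg/ml together with liquiritin, for which the labels of replicates 1, 2 and 3 read 3.98, 3.99 and 3.100 mg/ml, although the study's methods give a single dose for the group, so the rats need not have had different doses. All groups were dosed by mouth for 21 days, and the age of the rats is not given in the sources used here. Expression is in TPM, the share of a sample's transcripts that a gene contributes, corrected for transcript length and set to the same total in every sample, so that genes can be compared with one another but the sequencing depth and its counting error are not known.

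Nrf2, encoded by Nfe2l2, is held in the cytoplasm and marked for degradation by Keap1. When electrophiles or oxidants modify Keap1, Nrf2 accumulates, enters the nucleus and, with a small Maf protein, binds antioxidant response elements (AREs) of its targets, where Bach1 competes with it. The targets make and recycle glutathione, regenerate thioredoxin, reduce peroxides and quinones and break down heme, and in the central nervous system the program is known mainly from glia.

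Promoter windows of RefSeq on the GRCr8 assembly, reaching from 250 bases before to 50 bases after a transcript's start, were held for 7 of the 10 genes, and none was held for Hmox1, Gsr or Prdx6. The core of the ARE was searched as TGACNNNGC on both strands, in which N is any base. It was found in Gclm, on the minus strand of the window with its leftmost base at position -172 from the start, and in the second of the 2 windows of Txnrd1, on the minus strand with its leftmost base at position -78. Among all 33469 rat windows of 300 bases, 12.1% hold the core, so that a match is no more than a description. The windows of Nqo1, Gclc, Slc7a11 and Srxn1, the 3 windows of Gpx4 and the other window of Txnrd1 had no match, which says only that these letters are not in these windows. The 250 bases before the start are printed 5′ to 3′ for both matches, and for Nqo1 because it is a classical Nrf2 target and fell in PLM. Capitals mark the match, which reads as the reverse complement of the core. The Gclm stretch lies at chr2:213031885-213032134 on the plus strand, that of Txnrd1 at chr7:22755905-22756154 on the minus strand and that of Nqo1 at chr19:52220268-52220517 on the minus strand.
Gclm: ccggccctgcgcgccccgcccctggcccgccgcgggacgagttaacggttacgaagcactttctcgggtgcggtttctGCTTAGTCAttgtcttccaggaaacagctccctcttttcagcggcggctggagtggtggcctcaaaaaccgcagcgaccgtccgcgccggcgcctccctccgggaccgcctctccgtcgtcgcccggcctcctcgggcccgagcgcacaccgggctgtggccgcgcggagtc
Txnrd1: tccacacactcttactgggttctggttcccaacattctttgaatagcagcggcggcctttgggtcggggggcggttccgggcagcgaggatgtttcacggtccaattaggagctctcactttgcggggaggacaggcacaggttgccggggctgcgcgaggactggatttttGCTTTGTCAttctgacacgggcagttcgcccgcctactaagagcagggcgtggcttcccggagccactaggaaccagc
Nqo1: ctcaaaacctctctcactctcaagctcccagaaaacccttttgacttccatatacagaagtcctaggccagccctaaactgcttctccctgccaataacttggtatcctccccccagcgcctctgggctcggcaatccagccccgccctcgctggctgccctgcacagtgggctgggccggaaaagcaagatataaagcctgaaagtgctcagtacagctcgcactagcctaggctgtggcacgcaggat

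The 3 groups differed in more than single genes. The 13 protein-coding genes of the mitochondrial genome took 31.3% to 32.8% of all TPM in PLM, 23.7% to 26.1% in SNI and 25.3% to 32.8% in JA. The median of log2(TPM + 1) over the loci was 3.18 to 3.30 in PLM, 3.47 to 3.53 in SNI and 3.30 to 3.46 in JA, and the median log2 fold change of PLM versus SNI over all 15474 loci tested was -0.21 as deposited and 0.04 after each sample was centred on its own median. Calls are therefore counted on both scales. Marker genes of astrocytes, oligodendrocytes, neurons and microglia were detected in every sample. JA replicate 3 stood apart, with the highest summed Schwann cell markers (8034 TPM, against 127 to 4555 TPM in the other samples) and the highest summed meningeal markers (375 TPM, against 68.7 to 264 TPM), and values of the comparisons with JA are also given without it.

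The 9 genes were expressed at very different levels. Gpx4, the glutathione peroxidase that reduces lipid hydroperoxides in membranes, had the highest mean over the 9 samples, 708.7 TPM, at the 99.0th percentile of the loci. Prdx6, a peroxiredoxin that reduces peroxides of phospholipids, followed at 188.6 TPM. A group of middle levels then ran from Gclm (20.85 TPM) through Txnrd1 (19.4 TPM), Nqo1 (19.1 TPM) and Gsr (16.9 TPM) to Gclc (13.7 TPM). Hmox1 averaged 9.04 TPM and Slc7a11 2.09 TPM, the latter at the 12.7th percentile. Neighbours in this order were separated in all 9 samples except within the middle group, where Gclm exceeded Txnrd1 in 7 of 9 samples, Txnrd1 exceeded Nqo1 in 4 of 9 and Nqo1 exceeded Gsr in 8 of 9. The spread over samples did not follow the level: the highest sample exceeded the lowest 1.22-fold for Gpx4, 2.40-fold for Prdx6 and 2.83-fold for Slc7a11.

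**Figure D1:**
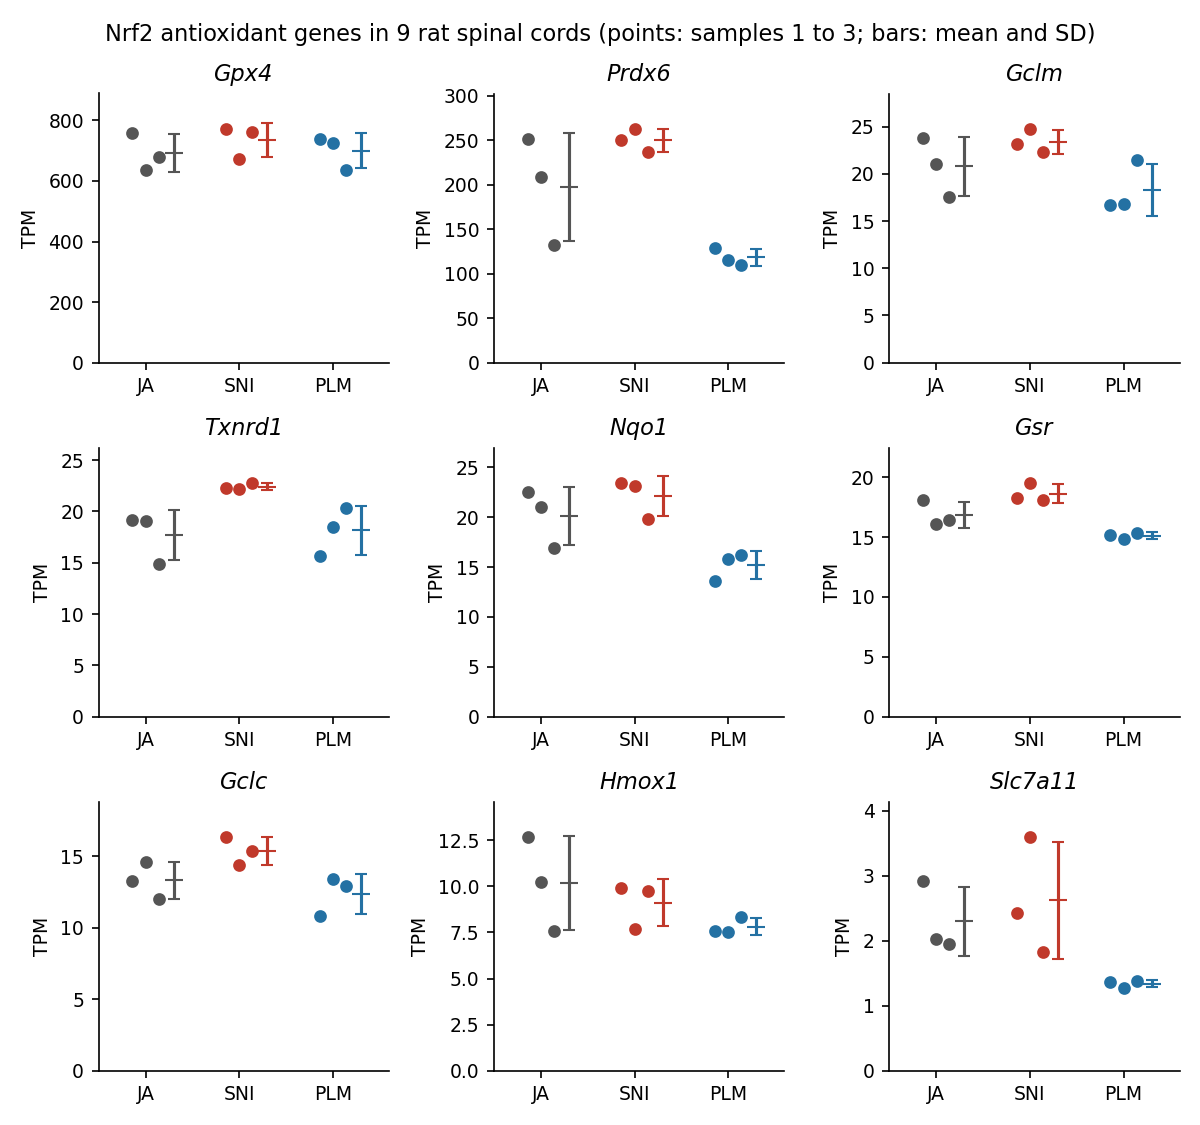
TPM of the 9 genes (vertical axes, each from 0) in the 3 samples of JA, SNI and PLM (points), with the mean and SD of each group beside them. The PLM points lie below all SNI points for 7 genes, all but Gpx4 and Hmox1, and the gap is widest for Prdx6.

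The comparison of PLM with SNI asks how the 2 compounds changed the injured cord. Prdx6, Nqo1, which reduces quinones with NADPH, and Gsr, which regenerates reduced glutathione, were lower in PLM at an adjusted p-value under 0.05, and no gene of the 9 was higher. The change was largest for Prdx6, whose PLM mean was 47.3% of the SNI mean, while Nqo1 stood at 68.7% and Gsr at 81.1%. All 9 log2 fold changes were negative as deposited, with a median of -0.30 against -0.21 over all loci, of which 85.0% were negative. After centring 7 of 9 were negative, all but Gpx4 and Hmox1, against 42.4% of loci. The count of 3 of 9 called lower compares with 13.6% of all loci tested, and the 7 of 9 genes whose PLM samples were all below the SNI samples compare with 41.9% of loci. After median-centring 1 of 9 genes, Prdx6, was called, against 0.685% of loci, and 2 of 9, Prdx6 and Nqo1, kept the groups apart, against 9.73%. The centred median of the 9 genes was -0.05.

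Of the peroxidases, Prdx6 (ENSRNOG00000002896 in the table) read 249.82, 263.16 and 237.11 TPM in SNI and 129.28, 115.96 and 109.58 TPM in PLM. The lowest SNI sample was thus far above the highest PLM sample. On the log2(TPM + 1) scale Prdx6 fell by 1.08 (SE 0.08, adjusted p = 0.00477, limma), and after centring by 0.83 (SE 0.10, adjusted p = 0.0317, limma). The call as deposited was kept without any 1 of the 6 samples (adjusted p = 0.00809 to 0.0301, limma). Prdx6 was also the only one of the 9 to pass the thresholds of the study's methods, an unadjusted p-value under 0.05 and a log2 fold change beyond 1, which 1.42% of loci passed on the lower side. The centred call of Prdx6 was kept without PLM replicate 1 and was lost without each of the other 5 samples, with adjusted p-values of 0.0867 to 0.14, although the fold change stayed between -0.93 and -0.75. Gpx4, the other peroxidase of the list, read 772.72, 671.78 and 760.18 TPM in SNI and 738.49, 726.47 and 634.75 TPM in PLM. Its groups overlapped, and its log2 fold change was -0.07 (95% interval -0.28 to 0.14, adjusted p = 0.561, limma) as deposited and 0.18 after centring.

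The change of Prdx6 came with that of astrocyte markers. The summed level of the 13 astrocyte markers measured (of 14 listed, among them Gfap, Aqp4, Slc1a2 and Aldh1l1) was 5585 to 6730 TPM in SNI and 3047 to 3635 TPM in PLM. As deposited 12 of the 13 were called lower in PLM by limma, with a median log2 fold change of -1.28, and 9 of 13 after centring, with a median of -1.04. None was at 0 in any sample. In bulk tissue fewer cells of a type and less RNA per cell cannot be told apart. Per 100 TPM of these markers, Prdx6 amounted to 3.71, 4.33 and 4.25 TPM in SNI and to 3.56, 3.22 and 3.60 TPM in PLM, a measure chosen after the data had been seen. The ratios of PLM lay below all those of SNI, and overlapped those of JA (3.79, 3.69 and 3.15 TPM). The direction turned when every marker counted alike, since the sum is mostly S100b and Aldoc. The log2(TPM + 1) of Prdx6 less the mean of the 13 markers on that scale was 1.17, 1.23 and 1.34 in SNI, 1.46, 1.42 and 1.48 in PLM and 1.14, 1.31 and 1.35 in JA, also chosen after the data had been seen, with PLM above all others. The part of the astrocyte markers in the result for Prdx6 was not tested, and the same holds for blood cell markers, whose sum was 4372 to 7467 TPM in SNI and 8253 to 11826 TPM in PLM with 0 of 7 called by limma and 4 higher at an unadjusted p-value under 0.05. Meningeal and fibroblast markers summed to 101 to 264 TPM in SNI, with 2 of 7 called lower in PLM as deposited and 0 of 7 after centring (limma), where 2 were lower at an unadjusted p-value under 0.05, and their part was not tested either. After centring 1 of 8 endothelial markers was called higher (limma), 5 of 8 endothelial, 5 of 10 oligodendrocyte and 5 of 12 microglial markers were higher at an unadjusted p-value under 0.05, and 8 of 8 Schwann cell markers had a lower mean with 0 called, and their part was likewise not tested.

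**Figure D2:**
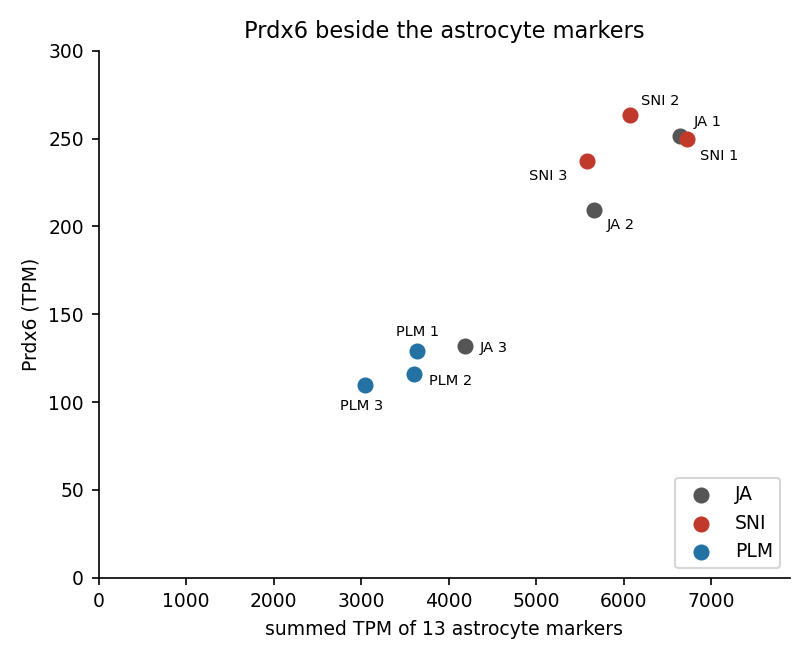
Prdx6 (TPM, vertical axis) against the summed TPM of 13 astrocyte markers (horizontal axis) in each of the 9 samples, coloured by group. The 3 PLM samples and JA replicate 3 lie together at low values of both, from 109.58 to 132.00 TPM of Prdx6, and the other 5 samples lie between 209.14 and 263.16 TPM.

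Nqo1 (ENSRNOG00000012772) read 23.46, 23.07 and 19.79 TPM in SNI and 13.58, 15.77 and 16.20 TPM in PLM. The groups did not overlap, and Nqo1 fell by 0.51 (SE 0.10, adjusted p = 0.0291, limma) on the log2(TPM + 1) scale. After centring its log2 fold change was -0.27 (SE 0.08, unadjusted p = 0.0130, adjusted p = 0.176, limma), still without overlap. The call as deposited was kept without SNI replicate 3 and lost without each of the other 5 samples, where the adjusted p-value was 0.0556 to 0.0973, while the fold change with 1 sample left out stayed between -0.59 and -0.44. Hmox1, the inducible heme oxygenase, is the other detoxifying enzyme of the list. It read 9.92, 7.67 and 9.77 TPM in SNI and 7.58, 7.52 and 8.34 TPM in PLM, and SNI replicate 2 lay within the PLM range. The log2 fold change of Hmox1 was -0.19 (95% interval -0.46 to 0.08, adjusted p = 0.248, limma) as deposited and 0.05 after centring. Without SNI replicate 2 it was -0.30 (adjusted p = 0.0755, limma) as deposited and -0.05 after centring. Without SNI replicate 1 it was -0.13 and 0.10.

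Of the genes of glutathione supply, Gsr (ENSRNOG00000014915) read 18.27, 19.55 and 18.07 TPM in SNI and 15.15, 14.80 and 15.38 TPM in PLM, with little spread in either group and no overlap. Gsr fell by 0.28 (SE 0.06, adjusted p = 0.0387, limma), but the call was lost without any 1 of the 6 samples (adjusted p = 0.0664 to 0.12, limma, at fold changes of -0.30 to -0.25) and after centring, where the log2 fold change was -0.04 (adjusted p = 0.819, limma). Slc7a11, the cystine and glutamate exchanger that brings in the cystine for glutathione, read 2.43, 3.60 and 1.83 TPM in SNI and 1.37, 1.27 and 1.38 TPM in PLM. Its PLM mean was 51.1% of the SNI mean, close to the share of Prdx6, but the SNI samples were widely spread. The log2 fold change of Slc7a11 was -0.60 (SE 0.20, adjusted p = 0.0833, limma), on a scale that understates changes at such low levels, and -0.35 after centring. The centred value was -0.16 without SNI replicate 2 and -0.50 without SNI replicate 3. Gclc, the catalytic subunit of glutamate-cysteine ligase, which makes the rate-limiting step of glutathione synthesis, read 16.36, 14.38 and 15.38 TPM in SNI and 10.79, 13.38 and 12.88 TPM in PLM. Gclm, its modifier subunit, read 23.17, 24.80 and 22.29 TPM in SNI and 16.67, 16.79 and 21.48 TPM in PLM. For both subunits the PLM samples lay below all SNI samples, by less than 1 TPM at the nearest values of Gclm, and neither passed the test. Gclm passed it only without PLM replicate 3 (adjusted p = 0.0460, limma). The log2 fold change was -0.30 for Gclc (SE 0.10, adjusted p = 0.0859, limma) and -0.35 for Gclm (SE 0.11, adjusted p = 0.0792, limma), and after centring they were -0.05 and -0.10. Txnrd1, the cytosolic thioredoxin reductase, read 22.23, 22.18 and 22.80 TPM in SNI and 15.65, 18.45 and 20.32 TPM in PLM. It did not pass the test either, at a log2 fold change of -0.30 (SE 0.10, adjusted p = 0.0864, limma) as deposited and -0.05 after centring.

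Since both subunits of the ligase are read in the same sample and share its scaling, their ratio within a sample is free of the scaling between samples. JA samples had a Gclm to Gclc ratio of 1.57 ± 0.196, SNI samples of 1.53 ± 0.169 and PLM samples of 1.49 ± 0.212 (mean ± SD, n = 3). An exact two-sided permutation test of the mean log2 ratio gave p = 0.9 for PLM versus SNI, 0.6 for SNI versus JA and 0.6 for PLM versus JA, and 3 against 3 samples cannot give less than 0.1. The ratios of the 3 groups overlapped throughout.

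**Figure D3:**
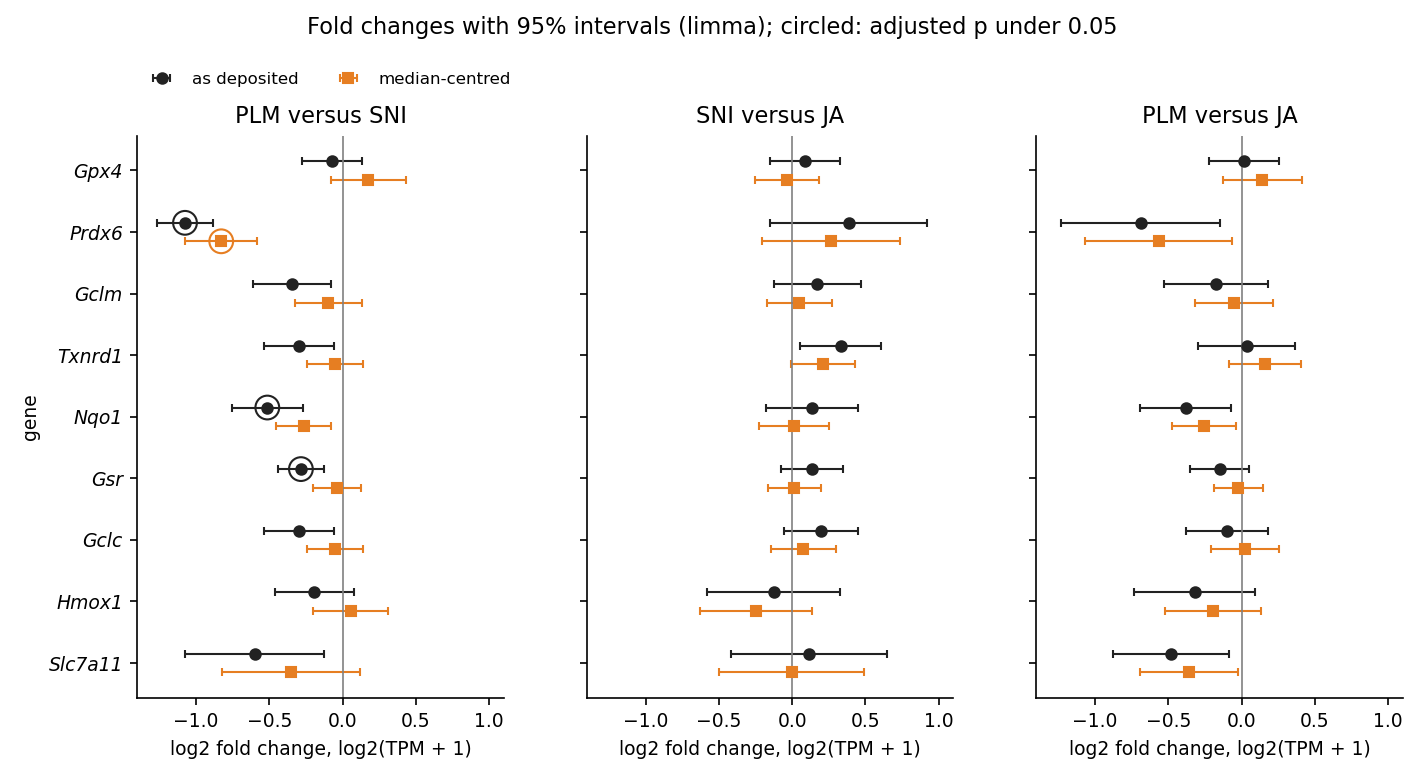
Log2 fold changes of the 9 genes on the log2(TPM + 1) scale (horizontal axes) with 95% intervals from limma, for the 3 comparisons, as deposited (black circles) and median-centred (orange squares). Rings mark an adjusted p-value under 0.05, which Prdx6, Nqo1 and Gsr reached as deposited and Prdx6 alone after centring, all in PLM versus SNI.

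The comparison of SNI with JA addresses the injury itself. None of the 9 genes was called by limma, and 1 of them, Txnrd1, had an unadjusted p-value under 0.05. Of the 15557 loci tested, 0% were called on either scale. At an unadjusted p-value under 0.05, 154 loci were lower and 950 higher as deposited, and 487 lower and 264 higher after centring. Txnrd1 read 19.18, 19.07 and 14.88 TPM in JA and 22.23, 22.18 and 22.80 TPM in SNI. Each SNI sample was above each JA sample, and the SNI samples lay within 1 TPM of each other. The log2 fold change of Txnrd1 was 0.33 (SE 0.12, unadjusted p = 0.0259, adjusted p = 0.614, limma) as deposited and 0.21 (adjusted p = 0.889, limma) after centring. It was the only gene of the 9 whose groups did not overlap, on either scale, against 12.1% of loci with every SNI sample higher as deposited and 4.00% after centring. Without JA replicate 3 the log2 fold change of Txnrd1 was 0.22, and after centring 0.13. Without JA replicate 1 these values were 0.39 and 0.22. The 12 neuron markers also had higher means in SNI, with sums of 2525 to 4710 TPM in JA and 4677 to 5836 TPM in SNI, 0 called by limma, 3 higher at an unadjusted p-value under 0.05 on either scale and a median log2 fold change of 0.33. The log2 fold changes of the 13 astrocyte markers were all above 0 as deposited, with a median of 0.42. Of these 0 were called by limma and 0 had an unadjusted p-value under 0.05, and 3 of 13 were below 0 after centring. Gfap itself read 740.96, 706.62 and 374.44 TPM in JA and 585.59, 617.16 and 560.7 TPM in SNI. After centring 4 of 12 microglial markers were lower at an unadjusted p-value under 0.05, as were 2 of 10 oligodendrocyte, 2 of 8 endothelial and 1 of 7 meningeal markers. All 10 oligodendrocyte and all 8 endothelial markers had log2 fold changes below 0 on that scale. The part of these lists in the value of Txnrd1 was not tested. The median of the 9 genes was 0.14 as deposited, beside 0.12 over all loci.

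Prdx6 read 251.48, 209.14 and 132.00 TPM in JA, so that JA replicate 1 lay within the SNI range and JA replicate 3 near the PLM samples. Its log2 fold change of 0.39 (SE 0.22, adjusted p = 0.614, limma) was 0.12 without JA replicate 3, 0.59 without JA replicate 1 and 0.27 after centring. In JA replicate 3 the astrocyte markers were also lowest of the group, at 4187 TPM against 5668 and 6640 TPM, and what this contributes to the value of Prdx6 was not tested. Hmox1 read 12.70, 10.25 and 7.60 TPM in JA and was the only gene of the 9 with a lower mean in SNI, at 89.6% of JA. The log2 fold change of Hmox1 was -0.13 as deposited (adjusted p = 0.798, limma) and -0.25 (adjusted p = 0.889, limma) after centring. As deposited the JA samples covered all of the SNI values, and after centring SNI replicate 2 lay below every JA sample. Without JA replicate 3 the fold change of Hmox1 was -0.30 as deposited and -0.39 after centring. Without JA replicate 1 it was 0.03 and -0.13, and without SNI replicate 2 it was -0.02 and -0.14. The other 6 genes had log2 fold changes of 0.09 (Gpx4) to 0.20 (Gclc) as deposited, with overlapping groups, and after centring those of Slc7a11 and Gpx4 turned to -0.00365 and -0.03. Without JA replicate 3 the values of these 6 as deposited were 0.0175 for Nqo1, 0.0436 for Slc7a11, 0.0599 for Gclm, 0.0776 for Gpx4, 0.12 for Gsr and 0.13 for Gclc, and none of the 9 genes was called. Without JA replicate 1 they were 0.21 for Nqo1, 0.25 for Slc7a11, 0.27 for Gclm, 0.16 for Gpx4, 0.19 for Gsr and 0.20 for Gclc, and again none was called.

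PLM was compared with JA to see where treated injured cords stood beside uninjured ones. These 2 comparisons with JA and that of PLM with SNI share samples, so their fold changes are not independent. None of the 9 genes was called by limma in PLM versus JA, while 0.0195% of the 15349 loci were called as deposited and 0.0130% after centring. Prdx6, Slc7a11 and Nqo1 had lower PLM levels on both scales before adjustment (p-value under 0.05), as did 1610 of the 15349 loci as deposited and 724 after centring. As deposited none of the 9 reached that level without JA replicate 1, 1 did without JA replicate 2, PLM replicate 1 or PLM replicate 3, 2 without PLM replicate 2 and 4 without JA replicate 3. For Prdx6 the PLM mean was 59.9% of the JA mean, at a log2 fold change of -0.69 (SE 0.23, unadjusted p = 0.0202, adjusted p = 0.371, limma). This was -0.95 without JA replicate 3 (adjusted p = 0.0681, limma) and -0.49 without JA replicate 1 (adjusted p = 0.484, limma). After centring it was -0.56 (adjusted p = 0.494, limma) and the groups overlapped. The 13 astrocyte markers moved with Prdx6 here as well, with 0 of 13 called by limma, 10 of 13 lower at an unadjusted p-value under 0.05 and a median log2 fold change of -0.94, and 8 of 13 after centring. The 7 meningeal and fibroblast markers measured were lower in mean as well, with 0 of 7 called by limma, 5 of 7 lower at an unadjusted p-value under 0.05 and a median of -1.05, and 2 of 7 after centring. Their sums were 150 to 375 TPM in JA and 68.7 to 137 TPM in PLM. After centring all 12 neuron markers had log2 fold changes above 0, with 0 called by limma and 3 at an unadjusted p-value under 0.05. For 6 of these 12 every PLM sample was above every JA sample, against 9.51% of loci. As deposited 3 of 10 oligodendrocyte markers were lower at an unadjusted p-value under 0.05, and 0 of 10 after centring. The part of these lists in the values of the 9 genes was not tested.

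Slc7a11 read 2.91, 2.03 and 1.95 TPM in JA, all above the PLM samples. Its log2 fold change was -0.48 (SE 0.17, unadjusted p = 0.0241, adjusted p = 0.381, limma) as deposited and -0.36 (adjusted p = 0.494, limma) after centring, without overlap on either scale. Nqo1 read 22.53, 21.03 and 16.91 TPM in JA, and the lowest of these was less than 1 TPM above the highest PLM sample. Its log2 fold change was -0.38 (SE 0.13, unadjusted p = 0.0235, adjusted p = 0.379, limma) as deposited and -0.26 (adjusted p = 0.494, limma) after centring. Gsr, at 18.11, 16.10 and 16.39 TPM in JA, was the fourth gene with every PLM sample below every JA sample as deposited, a pattern of 15.7% of loci, with a difference of -0.15 on the log2 scale (adjusted p = 0.544, limma) and of -0.02 after centring. After centring 2 of the 9, Slc7a11 and Nqo1, kept the groups apart, against 6.93% of loci. Txnrd1 and Gpx4 had PLM means of 102% and 101% of JA, with log2 fold changes of 0.03 (95% interval -0.30 to 0.37) and 0.02 (95% interval -0.22 to 0.26) as deposited and 0.16 and 0.14 after centring. Hmox1 differed by -0.32 on the log2 scale (limma, adjusted p = 0.526) and by -0.20 after centring, with overlapping groups. Without JA replicate 3 none of the 9 was called, and the log2 fold changes as deposited were -0.56 for Slc7a11, -0.50 for Nqo1 and for Hmox1, -0.29 for Gclm, -0.17 for Gclc and for Gsr, -0.08 for Txnrd1 and 0.00679 for Gpx4. Without JA replicate 1 they were nearer 0 for 6 of these, at -0.35 for Slc7a11, -0.30 for Nqo1, -0.16 for Hmox1, -0.0778 for Gclm, -0.0983 for Gsr and -0.0989 for Gclc, and stood at 0.0930 for Txnrd1 and 0.0883 for Gpx4. Gclm read 23.79, 21.10 and 17.56 TPM and Gclc 13.27, 14.62 and 11.99 TPM in JA, and both overlapped with PLM, at log2 fold changes of -0.175 and -0.10 as deposited and -0.05 and 0.02 after centring. Gpx4 read 759.49, 636.05 and 678.24 TPM in JA, a range that overlapped those of both injured groups.

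The regulators of the pathway were measured beside its targets. Nfe2l2, which encodes Nrf2, averaged 22.7 ± 1.48 TPM over JA samples, 24.0 ± 2.76 TPM over SNI samples and 18.7 ± 2.94 TPM over PLM samples (mean ± SD, n = 3). The highest PLM sample of Nfe2l2 (21.87 TPM) all but touched the lowest SNI sample (21.90 TPM), at a log2 fold change of -0.35 (SE 0.13, adjusted p = 0.108, limma), which became -0.11 after centring (adjusted p = 0.694, limma). Keap1, its inhibitor, averaged 26.9 TPM in SNI and 24.3 TPM in PLM, a difference of -0.14 on the log2 scale (limma, adjusted p = 0.229) as deposited and of 0.11 (limma, adjusted p = 0.491) after centring. Bach1, its competitor, averaged 2.74 TPM in SNI and 2.10 TPM in PLM, at -0.27 (adjusted p = 0.313, limma) and -0.03 (adjusted p = 0.954, limma). None of these 3 passed the test in any comparison.

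Another 75 redox genes of the same pathways were tested, and 20 of them were lower and 0 higher in PLM than in SNI as deposited (limma), with 37 lower and 1 higher at an unadjusted p-value under 0.05, where 5541 of the 15474 loci were lower and 198 higher. The fall of 12 of 13 astrocyte markers in the same comparison, and of 9 of 13 after centring, stands beside this count, and its part was not tested. The 20 genes make up 26.7% of these redox genes, against 13.6% of all loci, and the median log2 fold change was -0.24 against -0.21. After centring 2 of 75 were lower and 0 higher, 9 were lower and 4 higher at an unadjusted p-value under 0.05 (1066 and 1555 of all loci), and the median was 0.01. The count as deposited was 15 without SNI replicate 2 and 6 to 10 without any other sample, with the fewest without PLM replicate 2, where 1456 of all loci were called lower without SNI replicate 2, 264 without PLM replicate 2 and 286 to 685 without each of the others. As deposited the lower genes were 6 of 24 genes of glutathione synthesis, peroxidases and transferases, 2 of 13 of the thioredoxin and peroxiredoxin system, 5 of 7 that supply NADPH, 3 of 4 that remove superoxide and hydrogen peroxide, 2 of 18 of heme, iron and detoxification and 2 of 9 Nrf2 regulators. Sod3, the extracellular superoxide dismutase, averaged 36.2 TPM in SNI and fell to 14.5 TPM, by 1.27 on the log2 scale (limma, adjusted p = 0.00526) and by 1.02 after centring (limma, adjusted p = 0.0263). Mgst1, a membrane-bound glutathione transferase, fell from 47.8 to 25.4 TPM, by 0.89 on the log2 scale (limma, adjusted p = 0.00526) and by 0.64 after centring (limma, adjusted p = 0.0494). These were the 2 genes called on both scales. Slc3a2, the heavy chain that partners Slc7a11 in the cystine exchanger, fell from 103.7 to 70.3 TPM (log2 fold change -0.55, adjusted p = 0.00541, limma) and read -0.31 after centring (adjusted p = 0.0834, limma). Gstm5, a cytosolic glutathione transferase, fell from 166.3 to 90.3 TPM (log2 fold change -0.88, adjusted p = 0.00661, limma), and Txn2, the mitochondrial thioredoxin, from 139.3 to 99.5 TPM (log2 fold change -0.48, adjusted p = 0.00786, limma). The centred values of Gstm5 and Txn2 were -0.63 and -0.23 (adjusted p = 0.0735 and 0.143, limma). Of the 75, none was called by limma in SNI versus JA, with 1 lower and 6 higher at an unadjusted p-value under 0.05 as deposited and 2 lower and 2 higher after centring. Nor was any called in PLM versus JA, with 16 lower and 0 higher as deposited (1610 and 199 of all loci) and 11 lower and 4 higher after centring (724 and 808 of all loci).

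**Figure D4:**
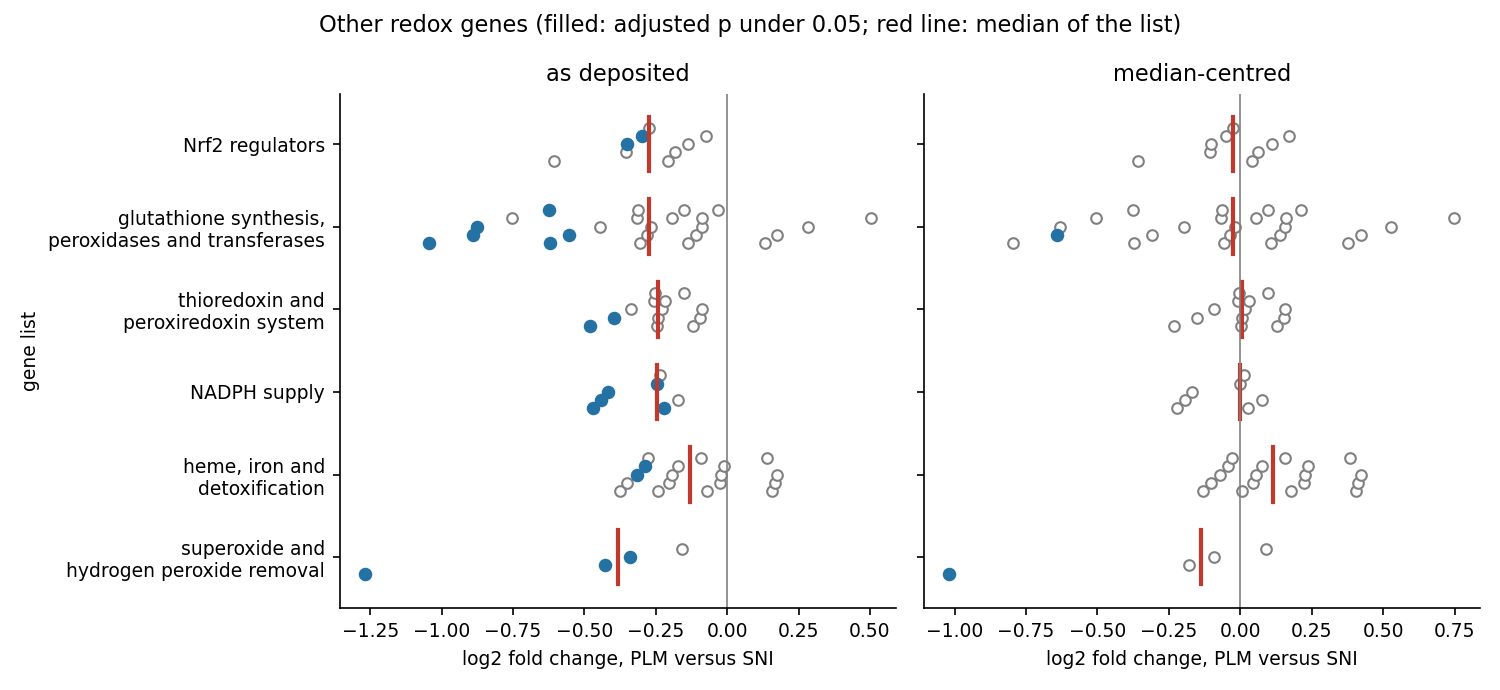
Log2 fold changes of PLM versus SNI on the log2(TPM + 1) scale (horizontal axes) for the other redox genes by list, as deposited and median-centred. Each point is 1 gene, filled points have an adjusted p-value under 0.05 (20 as deposited and 2 after centring) and red bars are list medians, which lie below 0 for all 6 lists as deposited and between -0.14 and 0.12 after centring.

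The genes whose pattern was most like that of each member were found by Pearson's r of median-centred log2 values over the 9 samples, among 9803 named loci that averaged 5 TPM or more. These correlations share the same samples and groups and are given as a description. Prdx6 had the closest companions, Ndrg2 (r = 0.996), Pla2g7 (r = 0.995) and Ntsr2 (r = 0.995), the last being 1 of the astrocyte markers. Gpx4 was most like Uqcr11 (r = 0.990), Wdr18 (r = 0.978) and Cox4i1 (r = 0.976), of which Uqcr11 and Cox4i1 encode subunits of the respiratory chain. For Nqo1 the companions were RGD1565616 (r = 0.970) and Acad8 (r = 0.966), for Hmox1 Zfp219 (r = 0.981), Rps6ka4 (r = 0.910) and Slc25a29 (r = 0.908), and for Slc7a11 Qprt (r = 0.945), Lgr4 (r = 0.938) and Pip4p2 (r = 0.937). Gclm was most like Cdc42bpa (r = 0.962), Usp31 (r = 0.936) and Scyl2 (r = 0.936). The remaining 3 had looser companions, with r up to 0.932 for Gclc (Cnot1, Nos1 and Grk6), 0.895 for Txnrd1 (Elk4, Abce1 and Ddx51) and 0.944 for Gsr (Fxyd3, LOC100125364 and RT1-M3-1). The 9 genes themselves were left out of this search.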

How the data were processed

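Total RNA of 9 spinal cord samples was sequenced. According to the study's methods and the submitters' processing notes, the authors trimmed adaptors and low-quality reads (fastp version 0.19.5), aligned with HISAT2 and quantified with StringTie. The notes name GRCh38.p13, a human build, for these rat samples, so the build is uncertain and no coordinates of the table were used. The authors deposited 1 table of TPM values. TPM keeps no depth, so the DESeq2 fit planned for counts was not run. Values were tested as log2(TPM + 1) with limma version 3.58.1 (R version 4.3.3, variance trend) in pairs of groups, keeping loci that averaged 1 TPM or more in the 6 samples, as deposited and after each sample was centred on its median. P-values were Benjamini-Hochberg adjusted over all loci, and a gene was called at an adjusted p-value under 0.05. The fits were tested on simulated data. Errors are SD over 3 samples or SE of the fit, and the labels call the samples biological replicates without saying more, so p-values measure only the spread between these samples. The genes and lists were chosen with earlier results of these data known. All members were named, and so were Nfe2l2, Keap1, Bach1, the 5 other redox genes per direction with the smallest p-values among those called, and the 3 loci most like each member, of which 1 is not reported here. Alternatives were a pseudocount of 0.1, no filter, at least 1 TPM in every sample, quantile normalization, rescaling without mitochondrial genes, a fit to all 9 samples, no variance trend, a replicate block and leaving out each sample. The thresholds of the study's methods and the view without JA replicate 3 were chosen after seeing the data. Promoter windows came from RefSeq on GRCr8.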

Additional observations from a re-analysis of the deposited data

How the results depend on the processing

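In PLM versus SNI, 3 of the 9 genes were called lower, and 1, Prdx6, under median-centring, quantile normalization, rescaling without mitochondrial genes, a fit to all 9 samples, a replicate block or the study's thresholds. With no filter or no variance trend 2 were called and with 1 TPM required in every sample 4, Slc7a11 being added (adjusted p = 0.0499, limma). Leaving out 1 sample gave 1 to 2. Over all loci, 2110 were called lower, and 106 after centring, 132 with quantile normalization, 267 after rescaling, 478 in the fit to all samples, 151 with the replicate block, 1237 with no filter, 1427 without the variance trend and 2594 with 1 TPM required in every sample. Of the 75 other redox genes 20 were called, and 2 after centring, 3 with quantile normalization, 5 after rescaling, 9 in the fit to all samples, 12 without the variance trend and 6 to 15 with 1 sample left out. Correlations of residuals did not set equal replicate numbers (-0.05 to 0.13) apart from different ones (-0.19 to 0.14). They cannot exclude a batch shared by number. The replicate block left 1 member and 4 other genes called, or 0 and 0 on centred values. On centred values 1 member was called, 3 without centring, 0 with the replicate block and 0 to 1 with 1 sample left out. SNI versus JA and PLM versus JA gave 0 calls of members under every alternative run. Directions turned only for values that were not called. In PLM versus SNI, Gpx4 read 0.18 after centring, with or without the replicate block, and 0.0773 after rescaling, and Hmox1 0.0545 after centring, with or without the block, and 0.0604 with quantile normalization. In SNI versus JA, Slc7a11 read -0.00365 and Gpx4 -0.0322 after centring, with or without the block, and Gpx4 -0.00122 after rescaling. In PLM versus JA, Gclc read 0.0243 after centring, with or without the block, and 0.0139 with quantile normalization. With 1 sample left out, the centred PLM versus SNI value ran from -0.0496 to 0.118 for Hmox1, -0.101 to 0.00439 for Gclc and -0.104 to 0.0148 for Txnrd1, the SNI versus JA value from -0.303 to 0.0332 for Hmox1 and -0.0696 to 0.281 for Slc7a11, and the PLM versus JA value from -0.0395 to 0.0883 for Gpx4 and -0.0798 to 0.131 for Txnrd1. The log2 difference in the ratio of Gclm to Gclc ran from -0.130 to 0.0748 (PLM versus SNI), -0.122 to 0.0680 (SNI versus JA) and -0.163 to 0.0421 (PLM versus JA). The causes of these shifts were not tested. Depth is unknown, so the counting error of low genes such as Slc7a11 cannot be given.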
